A study of Mus musculus with 2 samples.

Results

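Interferon-inducible GTPases of the guanylate-binding protein family (Gbp) and the immunity-related GTPase family (Irg) were measured in 2 sorted samples of stem and progenitor cells from mouse blood-forming tissue. The 10 genes were 5 Gbp genes (Gbp2, Gbp3, Gbp5, Gbp7 and Gbp10) and 5 Irg genes (Igtp, Ifi47, Irgm1, Irgm2 and Iigp1), out of 19057 genes named on the array. All array probes that the platform annotation pairs with these symbols alone were taken, 20 probes in all. The genes were chosen because members of the group were known from these data to be higher in the CA/CA sample, so their differences are given as a description without a test.

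One sample carried the genotype written CA/CA, and the other was a control whose genotype is given no further. The series is titled as a study of transgenic mice in which hematopoietic stem cells (HSCs) carry constitutively active IKK2, a kinase of the canonical NF-kB pathway, and CA/CA is read here as that genotype. The transgene's promoter, the strain, the age and the number of animals are not stated in the labels. Both samples were Flt3-low LSK cells, which lack lineage markers and carry Sca1 and c-Kit, and total RNA was amplified, biotin-labelled and hybridised to 1 Illumina bead array each. With 1 array per genotype there are no replicates, so no value has a replicate error, no difference has a p-value, and the arrays stand for 2 samples rather than for genotypes in general.

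GTPases of both families are cell-autonomous defence proteins. They are switched on mainly by interferon gamma, through gamma-activated sites (GAS) and through IRF1 at interferon-stimulated response elements (ISRE), and to differing degrees by type I interferons. Gbp proteins are large GTPases that assemble on pathogen vacuoles and on bacteria, and effector Irg proteins load onto the vacuoles of intracellular parasites. The regulatory Irgm proteins sit on the cell's own membranes and hold the effector Irg proteins inactive there. In the HSC compartment, mouse Irgm1 is known for being needed to keep stem cells functional when interferon is present.

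Promoter windows are shown first because letters of interferon-responsive elements recur in them. RefSeq windows of assembly GRCm38.p6, from 250 bases before to 50 after the annotated start, were matched by symbol for 8 of the 10 genes. Gbp10 and Iigp1 are named only. The 6 windows printed here are 5′ to 3′ in the direction of the gene. Capitals mark matches to the ISRE core GAAANNGAAA, the GAS motif TTCNNNGAA and a kB-type motif GGGANNTTCC, on either strand.
Gbp2 promoter, chr3:142620413-142620712, plus strand: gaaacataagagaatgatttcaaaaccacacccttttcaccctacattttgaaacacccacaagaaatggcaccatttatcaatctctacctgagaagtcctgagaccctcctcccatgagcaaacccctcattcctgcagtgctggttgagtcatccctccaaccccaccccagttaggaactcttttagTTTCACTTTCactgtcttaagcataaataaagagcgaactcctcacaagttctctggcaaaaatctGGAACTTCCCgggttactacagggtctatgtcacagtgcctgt
Gbp5 promoter, chr3:142496684-142496983, plus strand: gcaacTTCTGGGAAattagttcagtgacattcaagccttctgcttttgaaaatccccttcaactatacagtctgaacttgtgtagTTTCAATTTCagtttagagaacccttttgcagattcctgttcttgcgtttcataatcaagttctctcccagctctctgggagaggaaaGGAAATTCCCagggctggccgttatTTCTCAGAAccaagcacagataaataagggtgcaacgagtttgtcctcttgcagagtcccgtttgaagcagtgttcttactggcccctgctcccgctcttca
Gbp7 promoter, chr3:142530086-142530385, plus strand: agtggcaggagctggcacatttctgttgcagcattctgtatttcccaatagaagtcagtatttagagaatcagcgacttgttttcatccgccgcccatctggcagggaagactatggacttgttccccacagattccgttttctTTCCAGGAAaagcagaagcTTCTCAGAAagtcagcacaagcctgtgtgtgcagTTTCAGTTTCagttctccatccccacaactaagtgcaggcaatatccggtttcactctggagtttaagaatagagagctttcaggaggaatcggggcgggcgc
Igtp promoter, chr11:58199306-58199605, plus strand: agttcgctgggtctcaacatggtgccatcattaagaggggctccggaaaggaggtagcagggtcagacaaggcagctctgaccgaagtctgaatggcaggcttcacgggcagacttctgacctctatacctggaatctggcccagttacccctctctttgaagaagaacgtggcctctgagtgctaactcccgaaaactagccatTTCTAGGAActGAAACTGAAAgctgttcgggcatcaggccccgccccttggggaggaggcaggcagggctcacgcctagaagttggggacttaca
Irgm2 promoter, chr11:58214727-58215026, plus strand: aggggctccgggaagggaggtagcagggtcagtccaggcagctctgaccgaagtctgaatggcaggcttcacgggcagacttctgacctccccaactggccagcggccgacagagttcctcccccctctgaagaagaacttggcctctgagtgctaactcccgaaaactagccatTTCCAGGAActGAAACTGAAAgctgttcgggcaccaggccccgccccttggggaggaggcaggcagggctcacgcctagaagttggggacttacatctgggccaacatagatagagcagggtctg
Irgm1 promoter, chr11:48871371-48871670, minus strand: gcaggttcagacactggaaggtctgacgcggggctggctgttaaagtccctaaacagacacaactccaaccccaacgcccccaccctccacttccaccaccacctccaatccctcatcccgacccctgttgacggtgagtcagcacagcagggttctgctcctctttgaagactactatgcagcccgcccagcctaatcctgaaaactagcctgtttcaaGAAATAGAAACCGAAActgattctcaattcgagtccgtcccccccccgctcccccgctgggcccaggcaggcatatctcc

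The ISRE core was found in the windows of 7 of the 8 genes, all but Ifi47, and in 3.44% of all 32851 promoter windows. In Gbp2 it lay at -59 to -50 from the start, in Gbp7 at -53 to -44 and in Igtp at -34 to -25. Irgm1 held it at -30 to -21 and again at -24 to -15, which overlap, and Gbp3 at -45 to -36 and at -39 to -30, which overlap as well, while the window of a second Gbp3 start held no match. In Gbp5 it stood farther out, at -165 to -156. The GAS motif, a palindrome that reads the same on both strands, was found in 4 of the 8 genes (Gbp5, Gbp7, Igtp and Irgm2) and in 8.30% of all windows. A kB-type match was present in 2 genes, Gbp5 at -77 to -68 and Gbp2 at 8 to 17 past the start, against 1.47% of all windows. These matches describe letters in a window and not binding.

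In Igtp and Irgm2 the GAS motif and the ISRE core stood in the same order, 2 bases apart. This spacing was looked for in all windows after it had been seen in these genes. It occurred in 5 of 32851 windows, and all 5 belong to Irg family genes on chromosome 11. They are printed below, with the GAS motif and the ISRE core in capitals and the spacer in lower case, all in the direction of the gene.
Igtp: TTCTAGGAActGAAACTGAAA
Irgm2: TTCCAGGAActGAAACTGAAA
Tgtp1: TTCCAGGAAtcGAAACTGAAA
Tgtp2: TTCCAGGAAtcGAAACCGAAA
Gm12185: TTCCAGGAAtaGAAAGTGAAA
The windows of Igtp and Irgm2, which are neighbouring genes, were identical at 184 of 270 bases aligned without gaps, or 68.1%. No other pair among the 8 genes exceeded 36.2% in the same comparison. Tgtp1 (Irgb6) and Tgtp2 are close copies of each other, and Tgtp2 was not analysed here for signal.

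**Figure D1:**
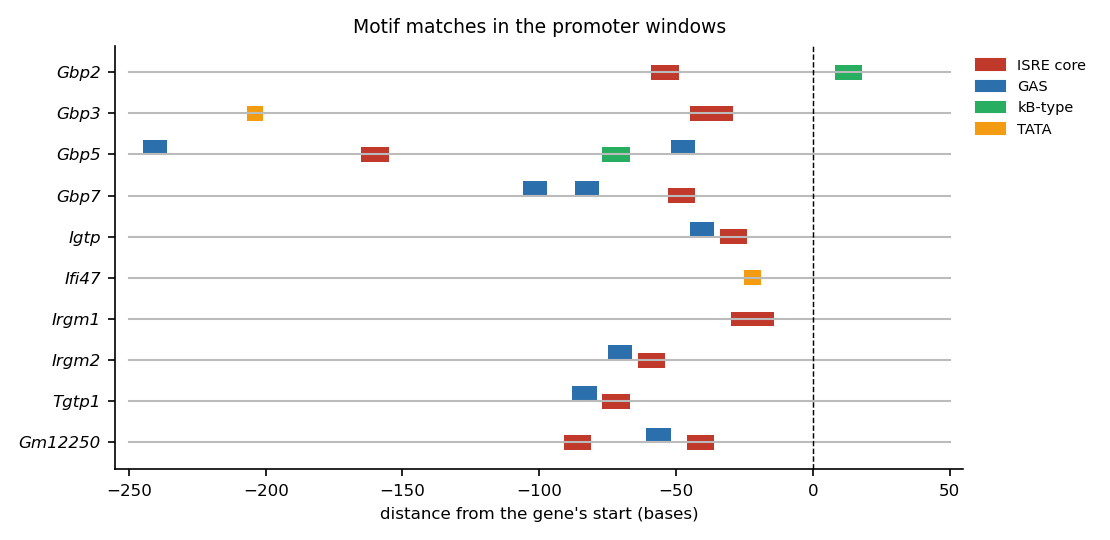
Matches to 4 motifs in the promoter windows of 8 members and of the family genes Tgtp1 and Gm12250, by distance in bases from the annotated start (dashed line). The ISRE core (red) is present in each window but that of Ifi47, and the GAS motif (blue, drawn slightly higher) directly precedes it in Igtp, Irgm2 and Tgtp1. Overlapping ISRE matches in Gbp3 and Irgm1 merge into 1 bar, and TATA marks TATAAA, found in 13.6% of all windows.

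The deposited signals are linear, normalized between the arrays and not background-subtracted. Their median was 86.1 on both arrays, and a background floor of 92.0 signal units was set 4 SD above the commonest value, 81.7. On the CA/CA array 37.0% of 45281 probes lay at or above the floor, and 37.0% on the control array. A difference is the CA/CA minus the control value of log2(signal + 16), averaged over a gene's probes that passed the floor on at least 1 array. The remaining background makes differences of dim genes smaller than they would be without it. Of the 20 probes of the 10 genes, 12 were above the floor on both arrays, 2 on the CA/CA array alone, 0 on the control array alone and 6 on neither.

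The GTPase genes detected on both arrays were higher in the CA/CA sample. All 12 probes above the floor on both arrays had the higher signal in CA/CA, while the 6 dim probes lay on both sides, 3 of them higher. The 2 probes above the floor in CA/CA alone, 1 each of Gbp10 and Irgm1, are left out of that count, since the floor fixed their direction. Both arrays detected 8 of the 10 genes, and 7 of these were higher by 2-fold or more (a log2 difference of 1 or greater) and 0 lower by as much. Of all 8500 genes detected on both arrays, 111 were higher by that size, or 1.31%, and 1.87% lower. Since the genes were chosen on this contrast, nothing is read from that comparison. The median difference of the 8 genes was 1.53, from 0.92 to 2.57, beside a median of 0.01 and a central 95% range of -0.89 to 0.74 for all 8500 genes. The Gbp and Irg genes each gave 4 of the 8, with overlapping ranges of 1.12 to 2.35 for Gbp and 0.92 to 2.57 for Irg.

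**Figure D2:**
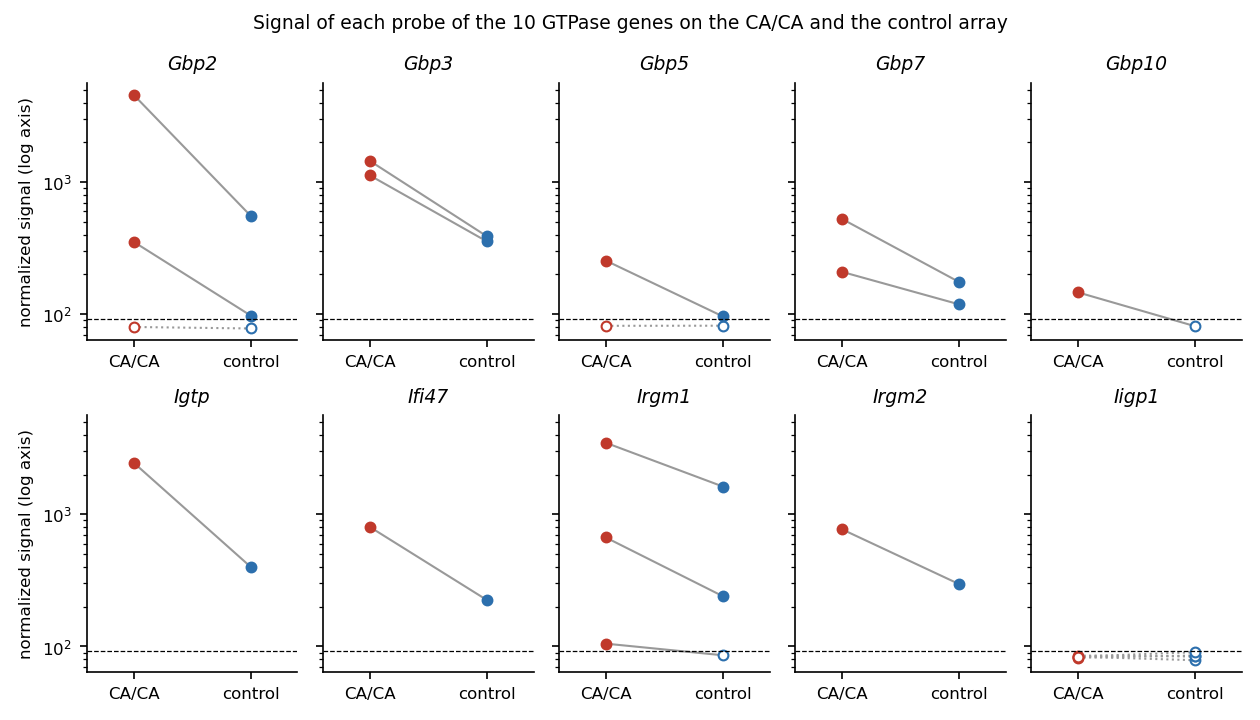
Normalized signal (log axis) of each probe of the 10 genes on the CA/CA array (red) and the control array (blue), with lines joining the values of 1 probe. Filled points are at or above the background floor of 92.0 (dashed line), open points are below it. Each line with both ends above the floor has its upper end in CA/CA. For the 2 lines above it in CA/CA alone, of Gbp10 and Irgm1, the floor fixed the direction. All 4 Iigp1 probes stay below the floor.

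Gbp2, a Gbp protein recruited to parasite vacuoles and known for restricting Toxoplasma in mice, had the largest single-probe difference of the group. Its probe ILMN_3122961 had a signal of 4585 in CA/CA, against 556 in control, a log2 difference of 3.01. The probe ILMN_3047389 was at 354 in CA/CA, against 97.8 in control, a difference of 1.70, with the control signal just above the floor. The remaining Gbp2 probe, ILMN_2605602, was below the floor on both arrays, at 80.1 in CA/CA and 78.0 in control. The gene's difference over the first 2 of these was 2.35, place 15 of 8500 from the top. The probes of Gbp2 thus differ in size of difference and in whether they detect the gene at all, and their positions on the transcript are not known here.

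Gbp3 lies in the same Gbp cluster on chromosome 3 as Gbp2, and its 2 probes gave like values. They were at 1450 and 1126 in CA/CA, against 389 and 356 in control, with differences of 1.86 and 1.62. Gbp7, which in mouse supports delivery of oxidase and autophagy proteins to vacuoles, had probes that differed more from each other. ILMN_2860645 was at 527 in CA/CA, against 175 in control, and ILMN_2860649 at 209 in CA/CA, against 119 in control, the smaller difference of the 2 at 0.74. Its mean difference of 1.12 was the smallest among the 7 genes past 2-fold, and with an offset of 50 in place of 16 it was 0.99, short of 2-fold.

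Gbp5, known for promoting assembly of the NLRP3 inflammasome, was dim in the control. Probe ILMN_1244866 was at 255 in CA/CA, against 96.2 in control, a difference of 1.27, and ILMN_1218150 was below the floor on both arrays at 81.7 in CA/CA and 81.9 in control. Averaged over both probes whatever their signal, Gbp5 differed by 0.63. Gbp10, in the Gbp cluster on chromosome 5, was above the floor in CA/CA alone. It had a signal of 146 in CA/CA, against 81.1 in control, at least 1.59-fold higher against the lowest signal above the floor. Gbp proteins share much of their sequence, and whether a probe also binds a relative was not checked.

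Among the regulatory Irg genes, Igtp (also named Irgm3) had the largest gene difference of the group as processed here. Its 1 probe had a signal of 2465 in CA/CA, against 400.4 in control, a log2 difference of 2.57, place 9 of 8500. Gbp2 was the larger with its brightest probe, at 3.01, against 2.57 for Igtp, and after normexp background correction with an offset of 16, at 3.06, against 2.82 for Igtp. Irgm2, its neighbour with the similar promoter window, was at 771 in CA/CA, against 297 in control, a difference of 1.33. Irgm1 was higher by 0.92 on average, the 1 member detected on both arrays that missed 2-fold. Of its 3 probes, ILMN_2804037 was at 3480 in CA/CA, against 1623 in control (1.09), and ILMN_1234539 at 668 in CA/CA, against 240.0 in control (1.42). The third, ILMN_2711172, was at 105 in CA/CA and below the floor in control at 85.8, at least 1.14-fold higher, and it lowers the mean. With the brightest probe alone Irgm1 differed by 1.09 and passed 2-fold.

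Ifi47 (Irgd), an Irg gene outside the Irgm subgroup, was at 804 in CA/CA, against 225 in control, a difference of 1.77. It is the member whose promoter window held neither the ISRE core nor the GAS motif. Iigp1 (Irga6), the effector Irg protein best known for loading onto the Toxoplasma vacuole, was not detected. The signals of its 4 probes ranged from 82.3 to 85.4 in CA/CA and from 78.7 to 90.5 in control, all below the floor, so no fold is given and a difference was not detectable at this signal.

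**Figure D3:**
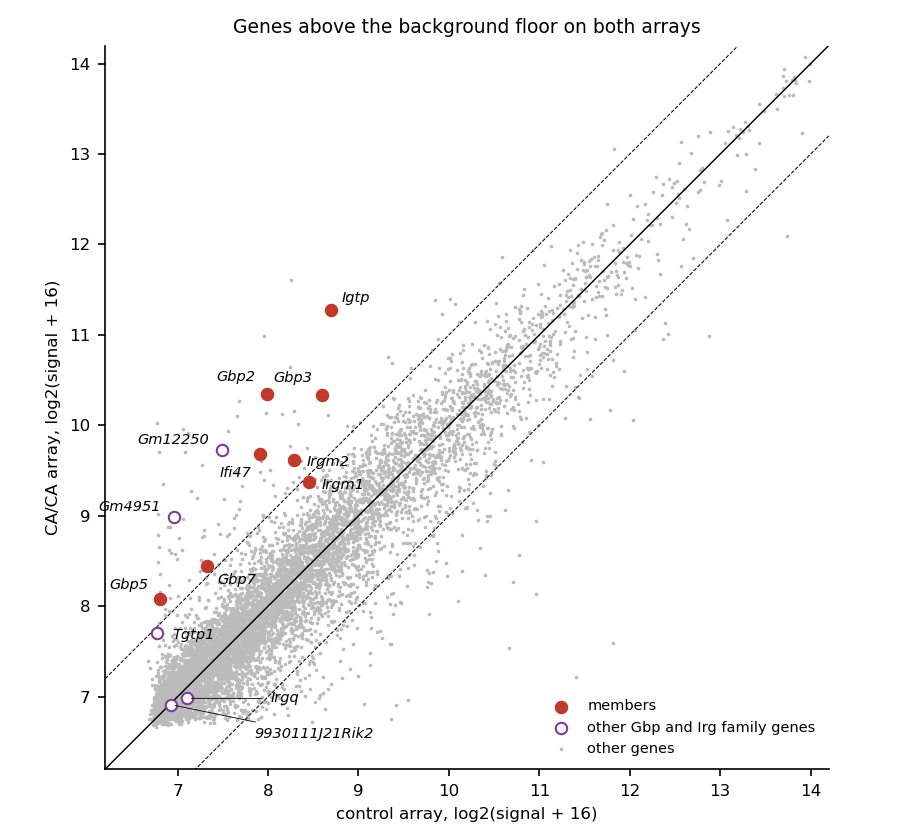
Each point is 1 of the 8500 genes detected on both arrays, with its mean log2(signal + 16) on the control array (x) and the CA/CA array (y). The solid line marks equal values and the dashed lines a 2-fold difference. The 8 measured members (red) lie above the solid line, with Irgm1 below the upper dashed line, and 2 of the 5 other measured Irg genes (open purple), Gm12250 and Gm4951, lie above the upper dashed line.

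The remaining family genes divided into measured Irg genes and undetected Gbp genes. None of the 6 other Gbp genes on the array (Gbp2b, Gbp4, Gbp6, Gbp8, Gbp9 and Gbp11) had a probe above the floor on either array. Of 9 other Irg genes on the array, 5 were measured, of which 2 were higher by 2-fold or more, 0 lower by that much and 3 within 2-fold. Of all genes detected on both arrays, 1.31% were higher and 1.87% lower by that size. Gm12250 (Irgb10), which acts on bacterial membranes in mouse macrophages, had a signal of 833 in CA/CA, against 164 in control, a difference of 2.24. Gm4951 was at 491 in CA/CA, against 108 in control (2.03), on 1 of its 2 probes, and the other was below the floor on both arrays. Tgtp1, an effector Irg gene, was at 193 in CA/CA, against 93.8 in control (0.93).

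Irg family genes near 0 were Irgq and 9930111J21Rik2. Irgq, a divergent relative thought not to bind GTP, had a signal of 114 in CA/CA, against 126 in control, a difference of -0.12 over 3 probes. 9930111J21Rik2 was at 104 in CA/CA and 106 in control. Gm4841, Gm5431, 9930111J21Rik1 and Irgc1 were below the floor on both arrays. Gm12185, listed as Irgb2b1 in RefSeq and recognised as a family gene after its value was seen, was at 150.2 in CA/CA and below the floor in control at 89.7, at least 1.63-fold higher. It is 1 of the 5 genes with the GAS and ISRE spacing, of which 3 were above the floor on both arrays (Igtp, Irgm2 and Tgtp1) at differences of 2.57, 1.33 and 0.93.

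Genes that flank the members' clusters were compared because they share position but not family. Up to 3 protein-coding genes on each side of the 5 clusters, and those between members, came to 31, of which 25 were on the array and 10 were measured, all on both arrays. Of these 10, 0 lay past 2-fold in either direction, beside 1.31% higher and 1.87% lower among all genes detected on both arrays. With shares this small, 0 of 10 is not read as a trait of the flanking genes. Their median was 0.15 and the values ran from -0.32 to 0.56. Next to the Gbp cluster on chromosome 3, Kyat3, a kynurenine aminotransferase, was at 170.1 in CA/CA, against 142 in control (0.22), and Pkn2, a protein kinase, at 221 in CA/CA, against 149 in control (0.43). Beside Igtp and Irgm2, Mrpl22, a mitochondrial ribosomal protein gene, had the largest positive difference of the flanking genes, 0.56, at 704 in CA/CA, against 471 in control, and Zfp692 was at 157 in CA/CA, against 197 in control (-0.18).

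Measured components of interferon gamma signalling lay within 2-fold, Irf1 closest to it. Of 8 genes of the list on the array, 6 were measured, with 0 past 2-fold in either direction and a median of -0.04, against 0.01 for all 10118 genes above the floor on at least 1 array. Irf1, the transcription factor that acts at ISRE elements of Gbp and Irg genes and is counted in the target list too, was the highest, at 1066 in CA/CA, against 554 in control. Its difference was 0.90 on average, and all 5 of its probes were higher in CA/CA, by 0.65 to 1.14. The receptor genes Ifngr1 and Ifngr2 differed by -0.17 and 0.06, the kinase Jak2 by 0.24 and the factor Irf8 by -0.14. Jak1 was above the floor in control alone. Ifng itself and the feedback inhibitor Socs1 were below the floor on both arrays.

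Other genes known to be induced by interferon gamma lay mostly above 0. Of 18 on the array, 15 were measured, 11 of them on both arrays. Of these 11, 10 were above 0, beside 51.3% of all genes detected on both arrays, with a median of 0.61. The 4 detected in CA/CA alone (Cxcl9, Cxcl10, Nos2 and Ciita) are left out of that count, since the floor fixed their direction. Among the 11, Tapbp, the class I loading factor, was at 368 in CA/CA, against 143 in control (1.25), and the immunoproteasome subunit gene Psmb10 was at 3919 in CA/CA, against 1940 in control (1.01). These 2 of the 11 were past 2-fold upward and 0 downward, beside 1.31% and 1.87% of all genes detected on both arrays. The chemokine genes Cxcl9 and Cxcl10 were above the floor in CA/CA alone, at 408 and 338, and at least 4.44-fold and 3.68-fold higher. Cd274, which encodes PD-L1, was the 1 of the 11 below 0, at 279 in CA/CA, against 289 in control. The transactivators Nlrc5 and Ciita were at 0.61 and, above the floor in CA/CA alone, at least 1.29-fold higher.

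Type I interferon genes lay on both sides of 0. In the signalling list 6 of 8 genes were measured and the median was -0.01, with Irf7 at 0.30, Irf3 at -0.15 and Irf9 at -0.06. Of these 6, 0 were past 2-fold in either direction, beside 1.31% higher and 1.87% lower among all genes detected on both arrays. With shares this small, 0 of 6 is not read as a trait of the list. Of 17 measured targets known for type I interferon, 15 were detected on both arrays. Of these 15, 10 were above 0, beside 51.3% of all genes detected on both arrays. The median was 0.30 over the 15 and 0.12 over all 17. Beside the 1.31% of all genes, 2 of the 15 were at least 2-fold higher. These were Isg15, a ubiquitin-like modifier, at 699 in CA/CA, against 226 in control, and Usp18, the protease that removes it, at 357 in CA/CA, against 164 in control. Rsad2, which encodes viperin, was lower in CA/CA at 149, against 204 in control, as was Ifi27l2a at 113, against 186 in control. Many of these genes respond to both kinds of interferon, so the lists do not separate the 2 pathways.

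Other GTPases of the dynamin superfamily, to which Gbp proteins are related, were compared for the family as a whole. Gvin1, a very large interferon-inducible GTPase, was at 582 in CA/CA, against 253 in control, a difference of 1.15 on 1 of its 3 probes. It was the 1 gene past 2-fold of the 5 detected on both arrays, beside 1.31% higher and 1.87% lower among all such genes. The antiviral GTPase gene Mx1 was above the floor in CA/CA alone, at least 1.02-fold higher, and Mx2 in control alone, at least 1.19-fold lower in CA/CA. Membrane-shaping relatives with housekeeping roles lay within 2-fold, with Mfn1 at 0.57, Dnm1l at 0.28, the atlastin gene Atl3 at 0.25 and Mfn2 at 0.00.

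Partner genes that the GTPases use had list medians near 0. The ATG8 conjugation genes, whose products direct Irg and Gbp proteins to vacuoles, had 9 of 10 measured, 0 past 2-fold and a median of -0.07, with Gabarap the lowest at 845 in CA/CA, against 1377 in control. Fnta, Fntb and Pggt1b encode parts of enzymes that attach lipid anchors to proteins, and some of these enzymes act on Gbp2 and Gbp5. With Rce1, Zmpste24 and Icmt, whose products process the protein afterwards, all 6 genes were measured. Of these, 0 were past 2-fold and the median was 0.07, with the protease gene Zmpste24 at 0.48. Among the defence partners, 11 of 14 were measured, 0 were past 2-fold and the median was 0.01. Of all genes detected on both arrays, 1.31% were higher and 1.87% lower by 2-fold or more. With shares this small, the counts of 0 are not read as a trait of these lists. Casp1, the inflammasome protease, was at 2355 in CA/CA, against 1473 in control (0.67), and Casp4 (caspase 11) at 269 in CA/CA, against 144 in control (0.58). Cyba, a subunit of the phagocyte oxidase, was at 2687 in CA/CA, against 4245 in control (-0.66).

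**Figure D4:**
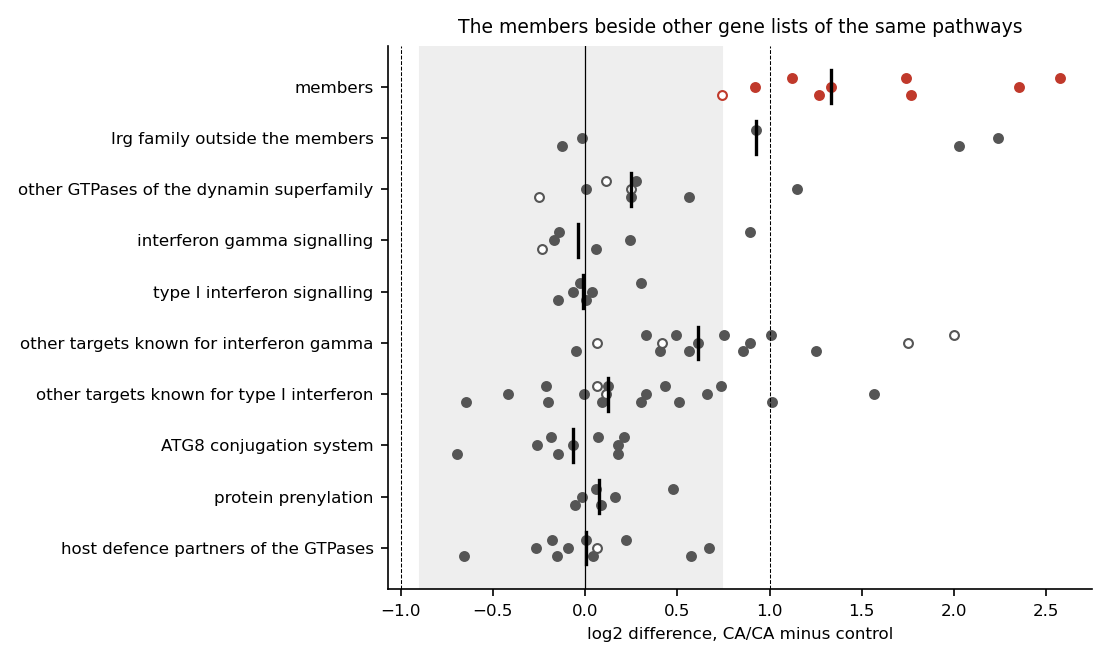
Log2 difference, CA/CA minus control, of each measured gene in the members and in 9 lists of related genes, with the list median as a black bar. Filled points were above the floor on both arrays, open points on 1 array alone. The grey band is the central 95% of all genes detected on both arrays, -0.89 to 0.74, and dashed lines mark 2-fold. The list of 6 other Gbp genes is not drawn because none was measured.

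Markers of other cell types also differed between the samples, and their part in the GTPase differences was not tested. In RNA from a sorted population, more cells of a type and more RNA per cell cannot be told apart. Of 7 monocyte and macrophage markers on the array 5 were measured, and Itgam and Mertk were below the floor on both arrays. The signals of the 5 summed to 548 in CA/CA, against 533 in control, background included. Of this Csf1r was 173 in CA/CA and 143 in control, and the other 4 summed to 375 in CA/CA, against 391 in control. Fcgr1 was above the floor in CA/CA alone and Adgre1 in control alone, so the direction of their part follows from the filter. Dendritic cell markers numbered 2 measured of 7, summing to 233 in CA/CA, against 173 in control. Both, Siglech and Zbtb46, were above the floor on the CA/CA array alone, with control signals of 86.0 and 86.7, so the direction of this sum follows from the filter. Itgax, Cd209a, Xcr1, Clec9a and Batf3 were below the floor on both arrays. T and NK markers had 7 of 9 measured and summed to 1778 in CA/CA, against 4819 in control, of which Nkg7 was 1055 in CA/CA and 4190 in control. Without Nkg7 the other 6 summed to 723 in CA/CA, against 629 in control. The T cell genes Cd3d and Cd3g differed by 0.52 and 0.31, and Cd3e and Cd4, above the floor in CA/CA alone, by 0.37 and 0.17. Prf1 differed by -0.14, and Klrb1c, above the floor in control alone, by -0.15. For Cd3e, Cd4 and Klrb1c the floor fixed the direction, so part of the T and NK sums follows from the filter. The 3 measured B cell markers of 5 summed to 667 in CA/CA, against 6374 in control. All 5 erythroid markers on the array were measured and summed to 5626 in CA/CA, against 1655 in control. Of this Car1 was 3112 in CA/CA and 289 in control, and the other 4 summed to 2514 in CA/CA, against 1366 in control. Hba-a1 went the other way, at 939 in CA/CA, against 1036 in control (-0.14). Endothelial markers had 5 of 6 measured and summed to 492 in CA/CA, against 875 in control. Of this Emcn was 80.6 in CA/CA and 309 in control, and the other 4 summed to 411 in CA/CA, against 567 in control. Emcn and Cdh5 were above the floor in control alone, so the direction of their part follows from the filter. For the labelled gate itself, Kit was at 677 in CA/CA, against 970 in control, averaged over 2 probes that differed by -0.58 and 0.21. Cd34, a marker of stem and progenitor cells, was at 153 in CA/CA, against 287 in control (-0.84). Procr, another such marker, was at 103 in CA/CA and 101 in control (0.02). Slamf1 was above the floor in control alone, at 89.7 in CA/CA and 110 in control, so the floor fixed its direction. The 2 Flt3 probes stayed under the floor in both samples, and the Sca1 gene Ly6a was not used here.

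Signal pairs like those of the 3 members brightest in CA/CA were looked up among the genes detected on both arrays, by the distance between log2(signal + 16) values on the 2 arrays. With only 2 arrays, this likeness rests on level and difference alone. Nearest to Igtp were C1qtnf12, at a distance of 0.24, Car1 and Blvrb. Nearest to Gbp2 were Serpina3f, at 0.22, Cyth3 and Samd14, and nearest to Irgm1 were Fcf1, at 0.02, Niban2 and Mthfd1.

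**Figure D5:**
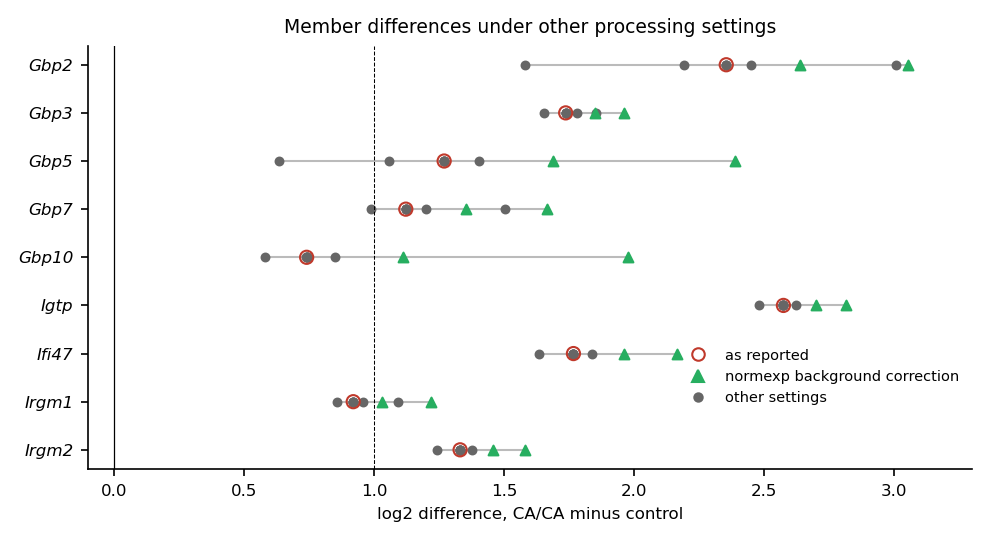
Log2 difference, CA/CA minus control, of the 9 measured members as reported (red rings), after normexp background correction (green triangles) and under the other settings (grey points). The dashed line marks 2-fold. Every point lies above 0, though Gbp10 was above the floor in CA/CA alone, which fixed its direction. The span is widest for Gbp5, from 0.63 to 2.39, and narrowest for Gbp3, from 1.65 to 1.96.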

How the data were processed

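RNA of 1 CA/CA and 1 control sample was hybridised to 1 array each. The values used are the authors' deposited intensity values, 1 column per sample. Per the submitters' processing notes BeadStudio was used, with version and settings unknown here. When each column is sorted, the largest log2 gap between them is 0.0022, a pattern that quantile normalization leaves, and background remains. A second table has 4 value columns whose headings match no sample label, and they were not used. Probes with 1 gene symbol numbered 34885, with several 18 and with none 10378. The background mode was the midpoint of the narrowest interval with 25% of values, and the floor was the mode plus 4 SD of the values below it. Genes were summarised over probes above the floor on at least 1 array. An at-least fold sets the bright signal against the higher of 92.0 and the dim signal. The pooled SD between probes of 1 gene in their CA/CA minus control difference was 0.24 on the log2 scale over 3861 genes. It measures spread between probes and not between samples, and precision is limited by the number of arrays. The members, the floor, the lists and the rule for named genes were chosen with earlier results of these data known. That rule names all members, the measured family and interferon gamma signalling genes, of other lists those past 2-fold and up to 4 with the largest differences, flanking genes and nearest signal pairs. Further genes, such as Ifng, Nlrc5 and Ciita, were chosen after their values were seen. The steps were tested on simulated data. Python 3.11.15, numpy 2.4.6, pandas 2.3.3, matplotlib 3.10.9, R 4.3.3 and limma 3.58.1 (for normexp) were used. Alternatives were other offsets, normexp, other floors, the brightest probe, median centring and other fold thresholds.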

Additional observations from a re-analysis of the deposited data

How the results depend on the processing

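No paired analysis was possible because each genotype has 1 array. Gbp10, above the floor in CA/CA alone, had its direction fixed by the floor. It and the 8 members measured on both arrays stayed above 0 under each of the 9 alternatives to offset, background, floor, probe choice and centring. The count of members at least 2-fold higher, 7 of 8, ranged from 6 to 8 under these and was 4 at a 3-fold threshold. The median over the 9 members measured on at least 1 array, 1.33, was 1.98 and 1.69 after normexp with offsets of 16 and 50. The median over the 8 measured on both arrays, 1.53, was 2.06 after normexp with an offset of 16, and 1.23 over all 10 with no floor, where Iigp1 and dim probes enter. Gbp2 moved to 1.58 with no floor and 3.01 with its brightest probe, and Gbp5 to 0.63 with no floor. Over the other Gbp and Irg genes, interferon gamma signalling and its other targets, 4 of 20 genes were at least 2-fold higher. The share of all genes detected on both arrays was 1.31%. The count of 4 became 7 after normexp with an offset of 16, 9 at 1.5-fold and 2 at 3-fold. The list medians of interferon gamma signalling, type I signalling and the defence partners, each nearer 0 than the probe SD, took either sign, reaching 0.04, 0.01 and -0.11. Over all genes, 111 higher and 159 lower became 231 and 398 after normexp with an offset of 16, 146 and 240 with an offset of 50, 370 and 536 at 1.5-fold, and 41 and 31 at 3-fold. Beyond dim probes entering without a floor, the causes were not tested.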

Other observations

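Genes with an ISRE core outside the members lay mostly within 2-fold. Among genes detected on both arrays, 268 non-members held it in a promoter window, and 5 of these were at least 2-fold higher, or 1.87%, while 3 were at least 2-fold lower. Among 6721 such genes with a window but no ISRE core, 76 were at least 2-fold higher, or 1.13%, and 124 at least 2-fold lower. The medians were 0.03 with the core and 0.01 without it. The 5 higher genes with the core were Saa3, an acute-phase serum amyloid (820 in CA/CA, against 94.9 in control), Gm12250, Isg15, Emilin2 (512 in CA/CA, against 188 in control) and Lgals9, which encodes galectin 9 (874 in CA/CA, against 429 in control). These genes were named after their values were seen. For the GAS motif, 10 of 592 genes with it and 71 of 6397 without it were higher by 2-fold or more, while 18 with it and 109 without it were lower by as much. For the kB-type motif the higher counts were 1 of 110 with it and 80 of 6879 without it, and the lower counts 0 and 127.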
